A study of Mus musculus with 6 samples.

Results

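The levels of 9 nephron progenitor genes were measured in whole mouse embryonic kidneys at E15.5: *Six2*, *Cited1*, *Eya1*, *Osr1*, *Sall1*, *Crym*, *Meox1*, *Pax2* and *Wt1*. They were chosen by name as known genes of the progenitors, with earlier results of these data in view, and every probe that the array's annotation gave to one of these 9 symbols was taken, whatever its value. Of the 9 genes, 8 had a probe, with 13 probes between them among the 45277 of the array. *Wt1*, a zinc finger transcription factor of progenitors and podocytes, had no probe of that symbol in the annotation used and is not reported further. A probe was tested where its detection p-value was under 0.05 on at least 3 of the 6 arrays, which left 10 probes of 7 of these genes among 18639 probes of the whole array. In all, 19057 genes had a probe and 10474 were tested.

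The RNA came from *FoxD1GC;Dicer fl/fl* kidneys and from the kidneys of Cre-negative littermates, in 3 litters. The *FoxD1GC* allele expresses an eGFP-Cre fusion from the endogenous *Foxd1* locus, so that the floxed *Dicer1* gene is removed in the renal stroma and in the cells descended from it, and not by design in the progenitors themselves. The *FoxD1GC* mice had a 129-Elite background and the *Dicer fl/fl* mice a C57BL/6J background. The *Dicer1* alleles of the control embryos are not stated in the labels or methods. Each array held whole-kidney RNA pooled from 2 embryos of one genotype and litter, giving 3 control pools and 3 mutant pools. Since the controls carried no Cre, loss of *Dicer1* and the Cre allele at *Foxd1* cannot be told apart. Litters are the replicates. All p-values measure the spread between these pools, which limma draws toward a value shared by all probes, so none rests on a gene's own spread alone.

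Nephron progenitors form the cap mesenchyme, a layer of cells that surrounds each tip of the branching ureteric bud, with stromal cells on its outer side. They either renew themselves or, in answer to a Wnt signal of the bud and to signals of the neighbouring stroma, aggregate and turn into the epithelium of a new nephron. *Six2* holds them in the uncommitted state, *Cited1* marks the least committed of them, and the *Eya1*, *Sall1*, *Osr1*, *Pax2* and *Wt1* proteins are nuclear regulators that the lineage needs.

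No progenitor gene passed the test between genotypes. The largest differences were those of *Six2* and *Eya1*, 0.67 (standard error 0.40) and 0.60 (0.25) on the log2 scale, both higher in *FoxD1GC;Dicer fl/fl* kidneys. *Cited1* differed by 0.07 (0.19). Of the 7 genes tested, 5 were higher and 2 lower in the mutant, against 48.7% of all probes above 0, and the sign of *Crym* and *Cited1* among the 5 turned with arrays scaled to one median. With litter in the fit, 0 of 7 reached a limma adjusted p under 0.05 and 0 of 7 the B-statistic above 0 that the study's methods use, and over all probes tested these shares were 0% and 0%. These shares hold for the processing used here. With the authors' processed values in the same fit, 0 of 18639 probes passed either threshold as well. The paper, which used the lumi package, reports differentially expressed genes at E15.5. At an unadjusted p under 0.05, 1 of the 7 was reached, *Eya1*, against 5.52% of all probes (2.59% higher and 2.92% lower). *Eya1* kept an unadjusted limma p under 0.05 with no litter block, uncorrected background and the strict filter. It also did with array weights and without litter 1, where 31.4% and 21% of all probes had such a p. It did not in the other settings, among them the processed values of the authors (0.0531) and no filter (0.0584). With those values and with no filter, *Sall1* passed in its place (0.0474 and 0.0264). The lowest adjusted p of any probe was 0.321. Because the kidney was measured whole, a different number of progenitors and a different amount of RNA in each progenitor cannot be told apart, in either direction.

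**Figure D1:**
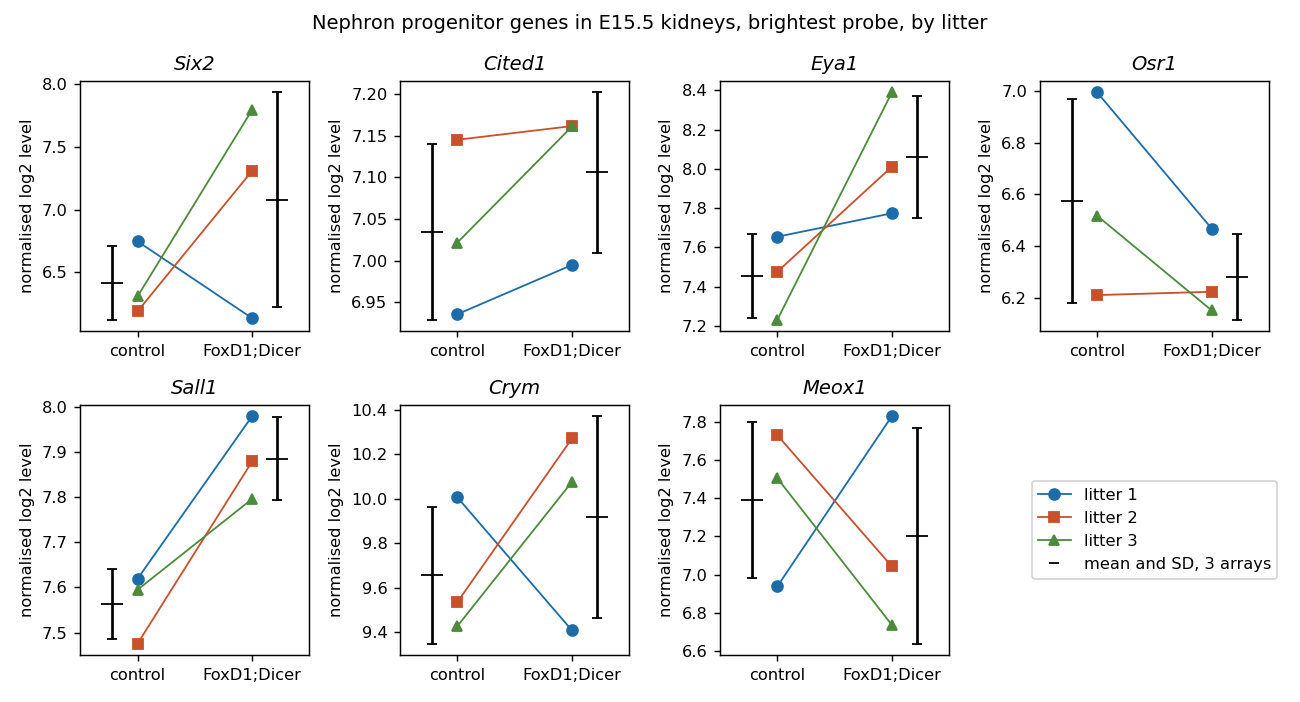
Normalized log2 level of the brightest probe of each tested progenitor gene (vertical axis, a range of its own for each gene) in the 3 control pools and the 3 *FoxD1;Dicer* pools, with the 2 pools of a litter joined by a line. For *Six2* the mutant pool is the lower one in litter 1 (6.13 against 6.75) and the higher one in litters 2 and 3, and for *Meox1* the order is the opposite.

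Some facts of the arrays bear on every value below. Levels are log2 of bead signals after background correction and quantile normalization, a log2 fold change is mutant minus control within litters, and levels of different probes are not set against each other. Between 37.5% and 44.7% of probes were detected on an array, and the control pool of litter 1 and the mutant pools of litters 2 and 3 had the most, 20224, 19331 and 20063, against 16981 to 18943 on the other 3. The same 3 arrays had the highest *Xist* level, the RNA that coats the inactive X chromosome of female cells, at 9.64, 9.39 and 9.64 against 4.54 to 4.61. The control and mutant pools of each litter therefore also differed in *Xist*, by -5.10 in litter 1 and by 4.82 and 5.03 in litters 2 and 3. The Y-linked genes *Eif2s3y* and *Kdm5d* differed the other way, by 0.79, -1.05 and -2.04 and by 1.20, -1.18 and -1.91 in litters 1, 2 and 3, and were detected on all 6 arrays. The sexes of the pooled embryos are not stated in the labels or methods, and the part of sex makeup in the progenitor values was not tested beyond a fit with *Xist*, given below. The signal range of an array was taken as the 95th percentile of its bead signals over the signal of undetected probes. It was lowest in the mutant pools of litters 2 and 3, at 7.895 and 7.907, against 9.446 or more on the other arrays. The control pool of litter 1 had 9.841. The part of this range in the progenitor values was not tested. *Dicer1*, measured over all cells of the kidney, was lower in the mutant pool of each litter, by 0.11 to 0.64 on the log2 scale, and the position of its probe relative to the floxed exon was not examined.

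*Six2* encodes a homeodomain transcription factor that keeps progenitors from differentiating. Its gene lies on chromosome 17 (chr17:85662736-85688254, GRCm38.p6) and had 1 probe, detected on all 6 arrays. The level was 6.75, 6.19 and 6.31 in the control pools of litters 1, 2 and 3, and 6.13, 7.31 and 7.80 in the mutant pools of the same litters. The mutant pool of litter 1 was the lowest of the 6 and the mutant pools of litters 2 and 3 were the highest, so the groups overlapped. Means were 6.42 ± 0.29 (SD, n = 3) in controls and 7.08 ± 0.86 (SD, n = 3) in mutants. The log2 fold change of 0.67, or 1.59-fold, had a 95% interval of -0.28 to 1.62 and a limma adjusted p of 0.860. Litter 1 differed by -0.61 and litters 2 and 3 by 1.12 and 1.49. Without litter 1 the log2 fold change was 1.30 (limma adjusted p = 0.186), without litter 2 it was 0.44 and without litter 3 it was 0.25.

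*Eya1* encodes a phosphatase and transcriptional coactivator that works with *Six2* and its relatives, and the kidney does not form in mice that lack it. It lies on chromosome 1 (chr1:14168953-14311035, GRCm38.p6) and had 4 probes, of which 3 were tested. Through its brightest probe the control pools of litters 1, 2 and 3 had levels of 7.65, 7.48 and 7.23, and the mutant pools had 7.77, 8.01 and 8.39. All 3 mutant pools lay above all 3 control pools, with the smallest gap in litter 1. Groups apart with the mutant above were seen for 2 of the 7 genes, *Eya1* and *Sall1*, against 5.92% of all probes, and apart with the mutant below for none of the 7, against 7% of all probes. The litters differed by 0.12, 0.54 and 1.16, and the log2 fold change of 0.60 (1.52-fold) had a 95% interval of 0.01 to 1.20, with a limma unadjusted p of 0.0481 and an adjusted p of 0.860. Without litter 3 it was 0.33.

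The second *Eya1* probe was detected in 1 of 3 control pools and in 3 of 3 mutant pools. Its levels were 5.52, 4.96 and 4.98 in the controls and 5.56, 5.81 and 6.62 in the mutants, apart as for the brightest probe. The fitted difference was 0.84 (standard error 0.32, limma unadjusted p = 0.0327, adjusted p = 0.860). This probe passed the detection filter mainly through the mutant pools, where it was higher, so the filter favoured such a difference. Its p-value and gap are therefore descriptions and not separate support for the brightest probe. The third tested probe, detected on 3 of 6 arrays, differed by 0.14, -0.27 and 0.36 in the 3 litters, and its log2 fold change was 0.08 (0.22, adjusted p = 0.964). The probes of the gene therefore did not give one value, and the fourth was detected on no array. Where each probe lies in the transcript was not examined.

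*Sall1* encodes a zinc finger protein that the progenitors need for self-renewal, and it is on chromosome 8 (chr8:89027242-89044162, GRCm38.p6). Its brightest probe measured 7.62, 7.48 and 7.59 in the control pools of litters 1, 2 and 3 and 7.98, 7.88 and 7.80 in the mutant pools. The groups did not overlap, and each litter had the mutant higher, by 0.36, 0.40 and 0.20. The log2 fold change was 0.32 (standard error 0.19, 95% interval -0.14 to 0.78, limma adjusted p = 0.860). Before normalization the order differed. The deposited bead signals were 302, 284.5 and 313.3 in the controls and 377, 290.1 and 265.3 in the mutants, with the mutant pool of litter 3 the lowest of the 6.

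The other *Sall1* probe, also detected on all 6 arrays, gave levels of 6.56, 7.26 and 6.96 in the controls and 7.12, 6.71 and 6.46 in the mutants. Litter 1 had the mutant higher, by 0.56, and litters 2 and 3 had it lower, at -0.55 and -0.49. Its log2 fold change was -0.16 (standard error 0.27, limma adjusted p = 0.940), opposite in sign to that of the brighter probe. Averaged over both probes the gene stood at 0.08.

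*Osr1*, a zinc finger factor of the intermediate mesoderm from which nephron and stromal cells both arise, is on chromosome 12 (chr12:9574442-9581500, GRCm38.p6). Its control pools had levels of 6.996, 6.21 and 6.52 in litters 1, 2 and 3, and its mutant pools 6.47, 6.22 and 6.15. The groups overlapped, and the control pool of litter 1 was the highest. The differences were -0.53, 0.01 and -0.37 and the log2 fold change -0.29 (standard error 0.21, 95% interval -0.79 to 0.20, limma adjusted p = 0.866). It was below 0 in all 12 alternative settings, from -0.45 to -0.09.

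*Meox1* encodes a homeodomain protein that marks the cap mesenchyme and is best known from somites. The gene is on chromosome 11 (chr11:101877510-101894354, GRCm38.p6). Its levels were 6.94, 7.73 and 7.50 in the control pools of litters 1, 2 and 3 and 7.83, 7.04 and 6.74 in the mutant pools. The mutant was the higher pool in litter 1, by 0.89, and the lower pool in litters 2 and 3, at -0.69 and -0.77. The groups overlapped, and the log2 fold change was -0.19 (standard error 0.35, 95% interval -1.02 to 0.64, limma adjusted p = 0.948). It was -0.73 without litter 1, and above 0 without litter 2 (0.06) or litter 3 (0.10).

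*Cited1* encodes a transcriptional coregulator that is lost from progenitors as they begin to respond to inductive signals. It lies on the X chromosome (chrX:102247378-102252181, GRCm38.p6). The control pools measured 6.94, 7.15 and 7.02 in litters 1, 2 and 3, and the mutant pools 6.99, 7.16 and 7.16. The 6 values overlapped and lay closer together than those of any other of the 7 genes through its brightest probe. The log2 fold change of 0.07 had a 95% interval of -0.38 to 0.53 (limma adjusted p = 0.962). *Cited1* was higher in the mutant in each litter, by 0.06, 0.02 and 0.14. In the authors' processed values its difference in litter 2 was -0.0009. Its deposited bead signals were 222.9, 244.9 and 238.9 in the controls and 238.8, 212.8 and 205.6 in the mutants, lower in the mutant in litters 2 and 3. On the normalized levels, *Cited1* made 3 of 7 genes with *Eya1* and *Sall1* that were higher in all 3 litters, against 11.5% of all probes. On the same levels 0 of 7 were lower in all 3, against 13.7%.

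*Crym*, on chromosome 7 (chr7:120186380-120201989, GRCm38.p6), encodes mu-crystallin, a cytosolic protein that binds thyroid hormone and is used as a marker of the cap mesenchyme. Its levels were 10.01, 9.53 and 9.43 in the control pools of litters 1, 2 and 3 and 9.41, 10.27 and 10.08 in the mutant pools. The same 3 arrays as for *Six2* were the highest, and the groups overlapped. Litters differed by -0.60, 0.74 and 0.65. The deposited bead signals were 1192.5, 894.1 and 895.4 in the controls and 835, 1148.3 and 900.9 in the mutants, so the pools of litter 3 were close before normalization. The log2 fold change was 0.26 (standard error 0.30, 95% interval -0.45 to 0.98, limma adjusted p = 0.911).

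*Pax2*, on chromosome 19 (chr19:44746601-44838269, GRCm38.p6), encodes a paired domain factor of the progenitors, the ureteric bud and the early nephron. Neither of its 2 probes was tested. One was detected on 1 of 6 arrays, the mutant pool of litter 3, with a deposited signal of 138.8 and a normalized level of 5.93 against 4.52 to 4.76 on the other arrays. The second was detected on 0 of 6, so no fold change is given for the gene.

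**Figure D2:**
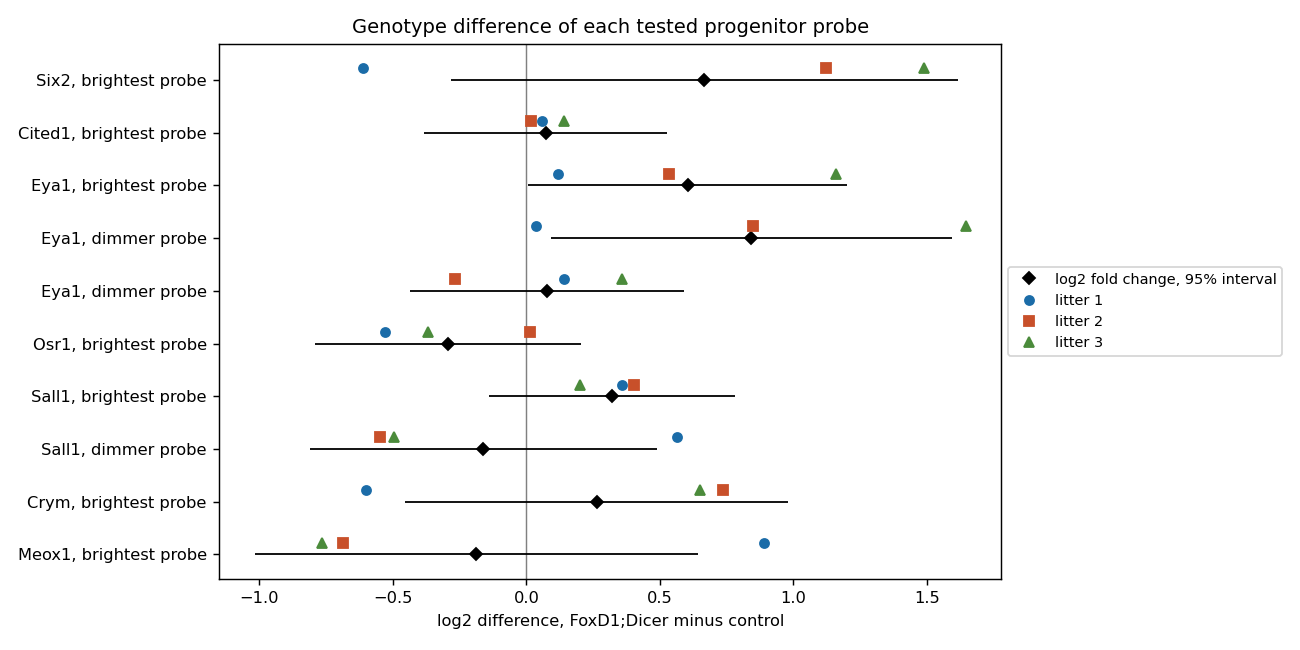
Mutant minus control difference (horizontal axis, log2) for each tested probe of the progenitor genes, with the fitted log2 fold change and its 95% interval as a black diamond and line and the 3 litters as coloured symbols. The interval includes 0 for 8 of the 10 probes, and the 2 that lie above 0 are the brightest and the second *Eya1* probe. The second *Eya1* probe passed the detection filter mainly through the mutant pools.

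For *Six2*, *Eya1* and *Cited1* the study designed qPCR primers so that the amplicon spans the array probe, and these are shown because they mark the stretch of each transcript that the array read. They are written 5′ to 3′.
Six2 forward: tctgctcggtatcctttggg
Six2 reverse: ttaaaaatcggggtggtggtg
Eya1 forward: attggttagttagaagggacttga
Eya1 reverse: gtgttgaaatgagaaagtcgggg
Cited1 forward: tagctcctctggatcgacatct
Cited1 reverse: ggccatcaggtgaggggta
The sources do not say which of the 4 *Eya1* probes its pair spans.

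Promoter sequence was looked up for the 9 genes in a set of RefSeq promoters (GRCm38.p6), from 250 bases before to 50 bases after each start. The set used held entries for 4 of them, *Six2*, *Cited1*, *Sall1* and *Pax2*. Those of *Six2* and of the most upstream *Cited1* start are shown because their levels had the widest and the narrowest range over the 6 arrays among the brightest probes. Both are on the minus strand and written 5′ to 3′ along the gene, at chr17:85688205-85688504 and chrX:102252132-102252431, with capitals at matches to a motif.
Six2: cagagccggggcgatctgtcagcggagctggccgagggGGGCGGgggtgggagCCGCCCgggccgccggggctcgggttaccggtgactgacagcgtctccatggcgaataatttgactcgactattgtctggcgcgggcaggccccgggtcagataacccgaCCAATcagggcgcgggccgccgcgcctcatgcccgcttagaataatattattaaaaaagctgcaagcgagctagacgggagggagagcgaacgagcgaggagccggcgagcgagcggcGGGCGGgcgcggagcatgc
Cited1: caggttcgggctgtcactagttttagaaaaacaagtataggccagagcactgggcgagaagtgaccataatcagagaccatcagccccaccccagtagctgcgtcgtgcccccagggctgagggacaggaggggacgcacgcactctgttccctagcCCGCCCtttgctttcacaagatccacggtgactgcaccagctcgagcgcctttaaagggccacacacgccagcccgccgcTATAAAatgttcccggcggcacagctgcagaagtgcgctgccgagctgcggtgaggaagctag
The motifs searched, on both strands, were TATAAA (the TATA box), GGGCGG (the GC box), CCAAT, TCAGGTTTC (a MEF3 site, bound by *Six2* and its relatives) and GCGGGGGCG (a site of the Egr and *Wt1* family), and no matches overlapped. The *Six2* stretch held 3 GC boxes and 1 CCAAT, and the *Cited1* stretch 1 TATA box and 1 GC box. Of 32851 RefSeq promoters, 13.6% held the first motif, 35.7% the second, 37.4% the third, 0.429% the fourth and 2.91% the last. A match is a description of the letters and not of binding.

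The progenitor genes were then compared with each other over the 6 arrays. With *Six2*, the level of *Crym* correlated at a Pearson r of 0.87 and that of *Eya1* at 0.86, *Cited1* stood at 0.52, *Sall1* at 0.31 and *Osr1* at -0.33. *Meox1* ran opposite to *Six2* at -0.91 and to *Crym* at -0.88. These are descriptions over 6 arrays that share litters and processing. High *Six2* and *Crym* and low *Meox1* all fell on the control pool of litter 1 and the mutant pools of litters 2 and 3, which are also the 3 pools of high *Xist*. *Cited1* and *Osr1* ran opposite to each other at -0.93 without following that division of the arrays.

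**Figure D3:**
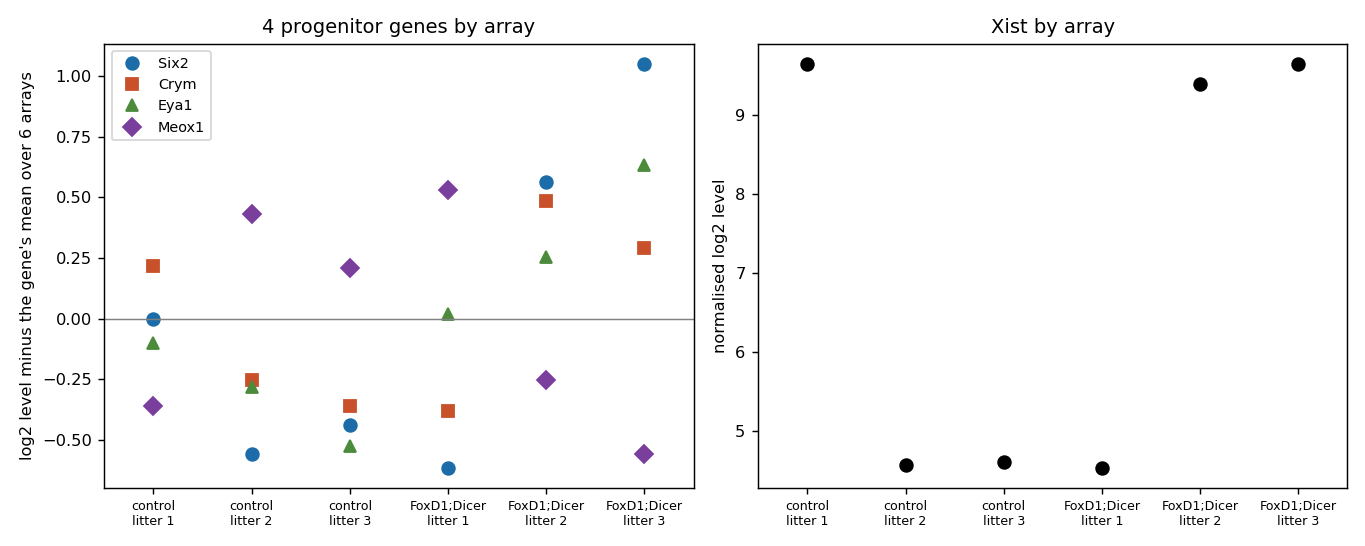
Left, log2 level of 4 progenitor genes on each of the 6 arrays, as the distance from the gene's own mean over the arrays, and right, the normalized log2 level of *Xist* on the same arrays. The 3 arrays with high *Xist* (control of litter 1, mutant of litters 2 and 3) are the 3 highest for *Six2* and *Crym* and the 3 lowest for *Meox1*.

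The *Xist* level was then added to litter and genotype in the fit, a setting chosen after seeing the data. The log2 fold change (standard error) was 0.36 (0.16) for *Six2*, 0.49 (0.19) for *Eya1*, 0.06 (0.15) for *Crym* and 0.07 (0.15) for *Meox1*. The median of the 7 genes was 0.07. This fit had nearly as many terms as arrays, so its values are descriptions and not a settled adjustment for sex. *Crym* ranked 798 and *Eya1* 901 among all genes tested by likeness to *Six2*. The 5 genes whose levels were most like those of *Six2* over the 6 arrays were *B4galt5* (r = 0.999), *Cadm1* (0.998), *Rrm1* (0.995), *Ube2k* (0.995) and *Carm1* (0.995). None of them is in the progenitor set or in the lists given below. Their log2 fold changes ran from 0.32 (*Rrm1*) to 0.62 (*Carm1*).

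As a group, the 7 tested genes had a median log2 fold change of 0.26, against -0.04 for all 10474 genes tested, and with arrays scaled to one median these were -0.04 and -0.27. In litters 1, 2 and 3 the median of the 7 was 0.06, 0.40 and 0.20, and that of all genes was -0.01, -0.02 and -0.11. The mutant pool was the higher one for 4, 6 and 5 of the 7 genes in the 3 litters. Over all genes 43.7% had a log2 fold change above 0. The scaling also moved the split of all probes at an unadjusted p under 0.05, from 483 higher and 545 lower to 217 higher and 1646 lower.

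Other genes of the same cells and their surroundings were taken from 4 lists. Of 24 other cap mesenchyme genes 17 were tested, of which 9 were higher and 8 lower in the mutant and 0 reached an unadjusted p under 0.05. Their median log2 fold change was 0.02, and in the 3 litters it was -0.19, 0.01 and -0.14. *Uncx*, a homeobox gene, had a log2 fold change of 0.27 with a standard error of 0.29, with litter differences of -0.52, 0.68 and 0.66 that have the signs of *Six2* and *Crym*. *Ncam1*, a cell adhesion molecule of the cap mesenchyme, stood at -0.10 (0.19). The mutant pool was lower in all 3 litters for 5 of the 17, against 13.7% of all probes, and higher in all 3 for 2, against 11.5%. Chosen after their values were seen, *Gdnf*, the ligand by which the cap mesenchyme drives bud growth, and *Tmem100* had groups that did not overlap, as had 7% of all probes with the mutant below. Their log2 fold changes were -0.38 (0.20) and -0.42 (0.19), with a limma adjusted p of 0.860 each.

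The early nephron list holds genes switched on as progenitors turn into epithelium. Of its 20 genes 16 were tested, 9 higher and 7 lower, with a median of 0.02. *Wnt4*, the signal by which aggregating progenitors drive their own epithelial conversion, was the single gene of the list with an unadjusted p under 0.05 (limma, 0.0426, adjusted p = 0.860). Its mean was 7.76 ± 0.27 (SD, n = 3) in controls and 8.63 ± 0.74 (SD, n = 3) in mutant pools, and the fitted difference was 0.87 (standard error 0.35). The litters differed by -0.07, 0.88 and 1.80, and the groups overlapped. *Ccnd1*, a cyclin of the cell cycle, stood at -0.13 (0.21), and *Osr2*, a relative of *Osr1*, at -0.37 (0.26).

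Of 17 paralogues of the progenitor genes 10 were tested, 3 higher and 7 lower, with 0 at an unadjusted p under 0.05 and a median of -0.20. In litters 1, 2 and 3 the median was 0.17, -0.25 and -0.38, the signs seen for *Meox1*. *Cited2*, a coregulator related to *Cited1*, stood at 0.13 (standard error 0.19) and *Osr2* was given above. Of 15 signals of the niche 13 were tested, 6 higher and 7 lower, with a median of -0.07 and *Wnt4* as the single gene at an unadjusted p under 0.05. *Wwtr1* and *Yap1*, which encode coactivators of the Hippo pathway, stood at -0.11 (0.20) and -0.07 (0.20). *Wnt4*, *Gdnf* and some other genes stand in 2 of the 4 lists.

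**Figure D4:**
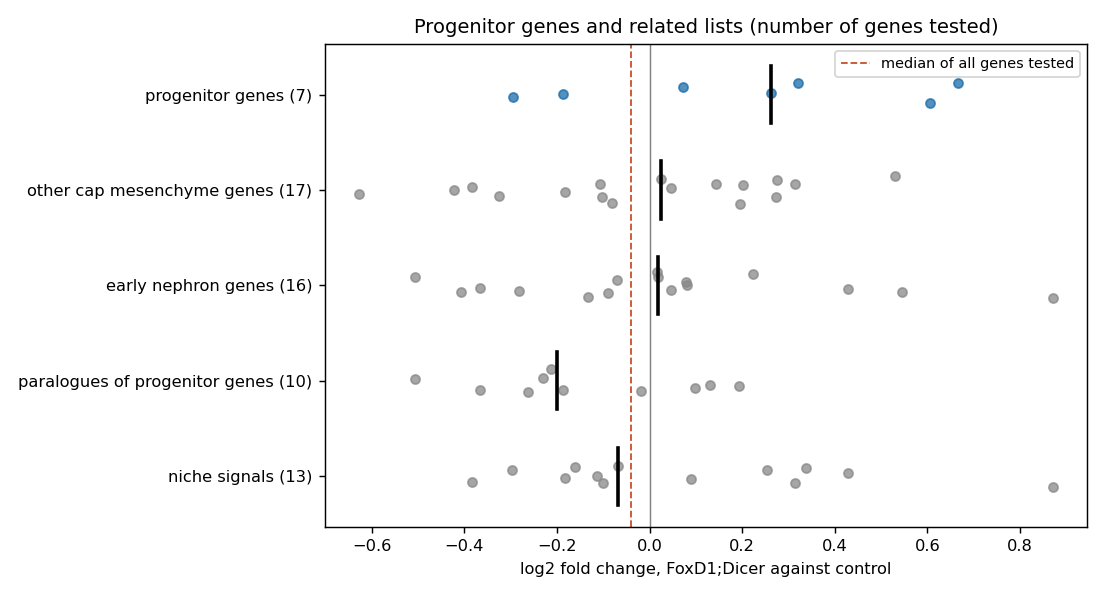
Log2 fold change of every tested gene of the progenitor set and of the 4 lists (points), with the median of each (line) and the number tested in brackets. The median of the progenitor genes is 0.26 and those of the lists run from -0.20 to 0.02, and the points of each list lie on both sides of 0.

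Markers of the other cells of the kidney were read from the same arrays. Of 11 stromal markers 10 were tested, 3 higher and 7 lower, and their mean level ran from 9.33 to 9.47 in control pools and from 9.10 to 9.53 in mutant pools. In all 3 litters 2 of the 10 were higher in the mutant and 2 lower. The 2 higher were *Pdgfrb* (log2 fold change 0.33, groups apart) and *Pdgfra* (0.06), receptors of stromal cells. The 2 lower were *Foxd1* itself, whose locus carries the Cre (-0.32, standard error 0.20, limma adjusted p = 0.860), and *Meis1* (-0.08), a homeobox gene of the stroma. Of 10 ureteric bud markers 9 were tested, 4 higher and 5 lower, with mean levels of 8.28 to 8.46 in controls and 8.27 to 8.36 in mutants. The podocyte list, which bears on *Wt1*, had 4 of 8 tested, 1 higher and 3 lower. None of the 6 adrenal markers was detected on enough arrays to be tested, and the endothelial and erythroid lists had medians of -0.07 and 0.01. Of 7 macrophage markers 6 were tested, 5 higher and 1 lower, with a median of 0.21.

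Proximal tubule markers were lower in the mutant than in the control pools of litters 2 and 3. Of 7 listed 5 were tested and all 5 had a log2 fold change below 0, with a median of -0.59 and litter medians of 0.02, -0.79 and -0.81. The mean level of the 5 ran from 7.62 to 8.25 in control pools and from 6.89 to 8.12 in mutant pools. *Cubn* and *Slc34a1*, an endocytic receptor and a phosphate transporter of the tubule, had unadjusted p of 0.0142 and 0.0402 in limma (adjusted p = 0.860 for both). Of all probes, 2.92% were lower at an unadjusted p under 0.05. *Cubn* and *Fbp1*, 2 of the 5, were lower in all 3 litters, litter 1 included, against 13.7% of all probes. The mutant pools low in this list, those of litters 2 and 3, are those high in *Six2* and *Crym*. The control pool of litter 1, also among the 3 highest for both genes, had the highest mean level of the list (8.25). The part that cell makeup, *Xist*, the signal range or the number of detected probes has in the progenitor values was not tested beyond the fit with *Xist*.

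**Figure D5:**
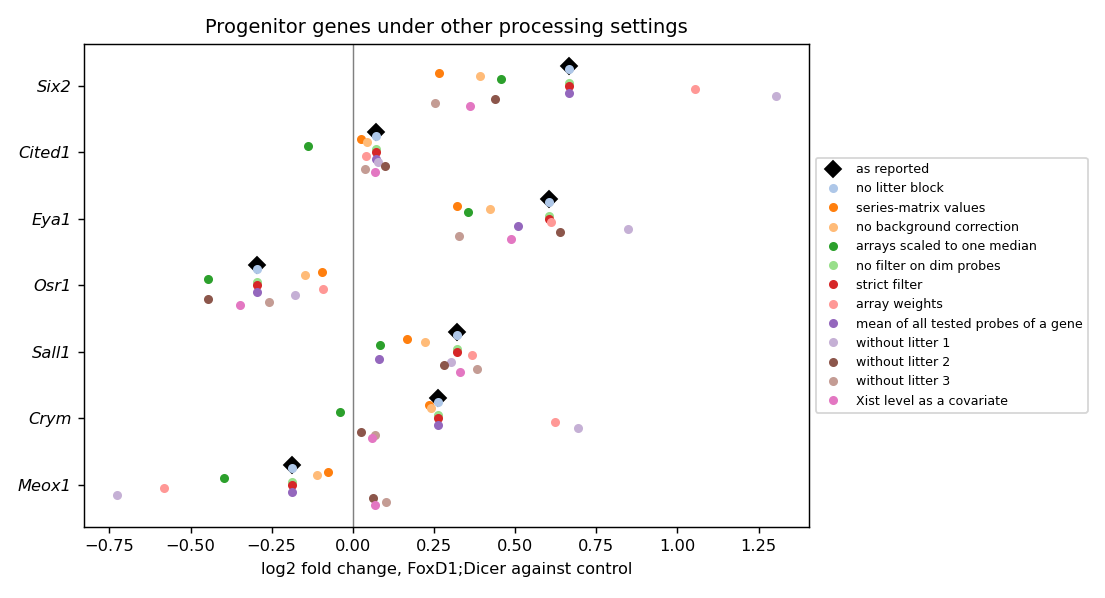
Log2 fold change of each tested progenitor gene in the fit with litter (black diamonds) and in 12 alternative settings (coloured points). Those of *Six2* run from 0.25 to 1.30 and those of *Eya1* from 0.32 to 0.85, both above 0 throughout, whereas *Crym*, *Cited1* and *Meox1* cross 0.

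The size of the difference depended on the litters for the 2 genes that differed most. *Six2* lay above 0 in all 12 alternative settings, from 0.25 to 1.30, and *Eya1* from 0.32 to 0.85, and in none of them did either gene reach a limma adjusted p under 0.05. The lowest adjusted p of each came with array weights, 0.0557 for *Six2* and 0.0708 for *Eya1*, a setting in which 31.4% of all probes had an unadjusted p under 0.05. *Sall1* ran from 0.08 to 0.38, *Crym* from -0.04 to 0.69, *Cited1* from -0.14 to 0.10 and *Meox1* from -0.73 to 0.10.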

How the data were processed

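Whole-kidney RNA of 3 litters was measured on 6 Illumina MouseWG-6 v2.0 arrays, 3 per genotype, and the number of arrays limits the precision. The authors deposited bead signals, an intensity per probe that had been neither background-subtracted nor normalized, with a detection p-value for each. The authors' processed values, on a scale close to log2, were deposited in a series table (column medians 7.23 to 7.24, not centred by gene, and brighter is higher) whose exact transformation stays unknown; they were used as an alternative.

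Of 45281 entries, 4 were dropped (2 had no identifier and 2 a repeated one). The platform annotation, its symbols brought up to date through gene identifiers, gave 1 gene to 34881 probes, several to 18, which were not named, and none to 10378. The normexp background correction used the detection p-values (offset 16) and was followed by quantile normalization and log2 (neqc), in place of the lumi package that the study used and that was not run here. Probes detected (p-value under 0.05) on 3 or more arrays were fitted with limma (lmFit and eBayes; litter and genotype), with Benjamini-Hochberg adjustment over 18639 probes. A gene was read through its tested probe of highest mean, with the others given beside it, and intervals are 95%. The labels mark the arrays L1, L2 and L3, and the study's methods name litters. L was read as litter, which was kept as a block. Deviations of the 2 arrays of a litter from their genotype means correlated at -0.29, -0.02 and -0.12 across probes. Between a control and a mutant array of unlike number the correlations ran from -0.21 to 0.30. The fit was tested on simulated data.

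The genes and lists were chosen with earlier results of these data known. Named genes were all 9 progenitor genes with all their probes, from each list the 2 genes of highest mean level and every gene at an unadjusted p under 0.05, and the 5 genes most like *Six2*. Marker genes were named where a range or count needed them, and *Gdnf* and *Tmem100* were named outside this rule, after their values were seen. Alternatives were no litter block, the series table, uncorrected background, arrays scaled to one median, no filter, a strict filter (p under 0.01 on all 6 arrays), array weights, the mean of a gene's probes, each litter left out, and *Xist* as a covariate, the last added after seeing the data. Promoters and positions were those of RefSeq, GRCm38.p6. The software was Python 3.11.15 with pandas 2.3.3 and matplotlib 3.10.9, and R 4.3.3 with limma 3.58.1 and the data.table package (version 1.17.8).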

Additional observations from a re-analysis of the deposited data

How the results depend on the processing

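The number of progenitor genes at an adjusted p under 0.05 was 0 under all 12 alternatives, which includes leaving out each litter. The number at an unadjusted p under 0.05 and higher in the mutant, 1 in the main fit, was 0 with arrays scaled to one median, with the mean of a gene's probes and with *Xist* as a covariate, and 4 with array weights. It ran from 0 to 3 when litters were left out, 3 without litter 1 and 0 without litter 2 or 3. In either direction, 5.52% of all probes reached this threshold in the main fit, 31.4% with array weights and 21% without litter 1. The share was 3.07% without litter 2, 2.96% without litter 3, 10% with scaling and 9.28% with *Xist*. With the mean of probes it was 6.38% of genes. The number lower, 0 in the main fit, was 1 with array weights and 0 to 1 when litters were left out, 1 without litter 1. The median of the progenitor genes, 0.26, was -0.040 with scaling, 0.080 with the mean of probes, 0.069 with *Xist* and 0.10 to 0.30 when litters were left out.

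*Crym* and *Cited1* turned to -0.040 and -0.14 with scaling, where the median of all genes was -0.27. *Meox1* turned to 0.068 with *Xist* and ran from -0.73 to 0.10 when litters were left out, at 0.06 without litter 2. The median of other cap mesenchyme genes was -0.25 with scaling and -0.092 with the strict filter, and -0.06 to 0.08 when litters were left out. That of early nephron genes was -0.24 with scaling and 0.0074 to 0.087 when litters were left out, and that of niche signals 0.33 with array weights and -0.039 to 0.23 when litters were left out. The median of paralogues lay between -0.37 and -0.10 when litters were left out. Why each moved was not tested.

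Without the litter block *Eya1* had an unadjusted limma p of 0.0200 (adjusted p = 0.585) and *Six2* an adjusted p of 0.712, and the pairing changed no call of a progenitor gene. Over all probes, 4 passed without the block against 0 with it, 93 with scaling, 26 with array weights, 2 without litter 1 and 14 without litter 2. With scaling, each tested progenitor gene had the same standard error, 0.298, which was also the median over all probes. Its p-value in that setting therefore did not rest on its own spread. A slide block was not run, since the headers give no slide. With 3 pools a genotype, an exact two-sided permutation test of one gene that ignores litter cannot go below 0.1. One that exchanges pools only within litters has a higher floor.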
